A study of Mus musculus with 15 samples.

Results

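A set of 652 autosomal windows of 1 kb, of 29251 measured (2.23%, or 3.27% of the 19935 with room to rise, where wild type was at 85% or less in both lineages), gained DNA methylation with mutant Idh2 in granulocyte-macrophage progenitors (GMP) and again in megakaryocyte-erythroid progenitors (MEP). They are described here together with their levels when Dnmt3a is deleted, alone or alongside mutant Idh2. A window was measured where at least 3 CpGs had 10 or more reads in all 15 libraries, and its level is the methylated reads over all reads, in percent. It was chosen where the Idh2 mutant mean exceeded the wild type mean by at least 15 percentage points in GMP and in MEP. Those differences chose the set, so they are given below as a description and support nothing.

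The mouse marrow cells, all of strain C57BL/6, were profiled by reduced representation bisulfite sequencing, which reads methylation at CpGs near restriction cut sites. GMP were sorted as Lin-cKit+, Sca1-, CD34+, Cd16/32+ cells and MEP as Lin-cKit+, Sca1-, CD34-, Cd16/32- cells. Every group carried floxed or deleted Dnmt3a. Wild type cells were Mx1-cre+;Dnmt3af/f, so they held the interferon-inducible Cre with an allele listed as floxed and not as deleted. Dnmt3a knockout cells were Mx1-cre+;Dnmt3a-/-. Idh2 mutant cells were Mx1-cre-;Dnmt3af/f;Idh2 R140Q and therefore lacked the Cre that wild type cells had. Each of these genotypes had 2 GMP and 2 MEP libraries. The double mutant, Mx1-cre+;Dnmt3a-/-;Idh2 R140Q, had 3 libraries from malignant marrow, of cells with the same surface markers as MEP. It therefore differs from the other groups in malignancy as well as genotype, and these cannot be told apart. Library names of the wild type and knockout groups carry GFP and those with mutant Idh2 carry M140, which the labels do not explain. Replicates are called biological in the labels, with no statement that they came from separate animals, so p-values may measure only the spread between these samples.

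Dnmt3a encodes an enzyme that places methylation on unmethylated CpGs, and its human counterpart is often mutated in acute myeloid leukaemia. The R140Q form of the mitochondrial enzyme Idh2 makes 2-hydroxyglutarate, which inhibits the TET enzymes that oxidise methylated cytosine and so start its removal. A window that rises with mutant Idh2 while Dnmt3a is intact can thus be asked for its level when Dnmt3a is absent.

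Library totals ran from 19306705 to 35204906 reads at CpG cytosines, and median depth at the 241527 shared CpGs was 30 to 51 reads. The 4 wild type libraries stood apart from the other 11 in sex chromosome reads. They had 53.9 to 57.5 chromosome Y reads per 1000000 autosomal reads and 2.21 to 2.25% chromosome X reads, against 199 to 386 per 1000000 and 1.17 to 1.47% elsewhere. This difference from wild type and the genotypes cannot be told apart in any value set against wild type. Double mutant and knockout libraries all lay in the latter ranges but did not overlap in chromosome Y reads. The double mutant had 357 to 386 per 1000000 and the knockout 203 to 303. Of 12 GMP and MEP marker promoters, 2 were measured. Prtn3, a neutrophil granule protease, lay at 3.04% or less in every group mean, and the promoter of Itga2b, the platelet integrin alpha chain, lay at 5.42% or less in 6 groups and at 74.3% in the double mutant. These values are from 1 window each, of 2 promoter windows at Prtn3 and 3 at Itga2b, and the others are not given here. Neither of the windows given is among the 652, and levels of RNA were not measured in these libraries.

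The 6 windows below are printed to show what was read: 3 with the largest gains in both lineages, 2 that were among the highest rises of double mutant over knockout, and the largest fall. Each is plus strand sequence of NCBIM37 (mm9), 5′ to 3′, with the CpGs that entered the level in capitals. Other CpGs in the stretch, in lower case, lacked the depth in at least 1 library.
Il10, intergenic, chr1:132907273-132907369: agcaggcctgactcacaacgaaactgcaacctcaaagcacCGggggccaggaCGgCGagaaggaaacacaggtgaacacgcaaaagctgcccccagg
Tigd5, near its start, chr15:75741001-75741178: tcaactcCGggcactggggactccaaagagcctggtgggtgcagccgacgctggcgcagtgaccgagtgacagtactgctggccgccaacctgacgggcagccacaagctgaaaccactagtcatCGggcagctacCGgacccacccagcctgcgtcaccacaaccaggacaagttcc
Slc26a8, intron, chr17:28819491-28819701: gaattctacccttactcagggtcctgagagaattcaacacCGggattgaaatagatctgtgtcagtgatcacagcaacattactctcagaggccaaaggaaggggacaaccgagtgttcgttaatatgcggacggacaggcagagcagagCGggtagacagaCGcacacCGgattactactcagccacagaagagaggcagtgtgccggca
Kcnk12, coding exon, chr17:88145564-88145667: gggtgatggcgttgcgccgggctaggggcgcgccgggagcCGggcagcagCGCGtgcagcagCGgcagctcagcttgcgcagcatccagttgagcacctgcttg
Gm14114, near its start, chr2:146664457-146664557: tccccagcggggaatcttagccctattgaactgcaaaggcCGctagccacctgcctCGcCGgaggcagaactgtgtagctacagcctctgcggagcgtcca
Fbxo31, intron, chr8:124094668-124094852: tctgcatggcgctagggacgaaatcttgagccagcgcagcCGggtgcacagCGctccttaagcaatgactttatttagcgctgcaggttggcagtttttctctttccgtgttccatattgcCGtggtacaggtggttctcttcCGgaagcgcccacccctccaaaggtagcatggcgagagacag
Each level below rests on few CpGs, as these stretches show: the 652 windows had a median of 3 measured CpGs, the minimum, and a median of 160.5 reads per library.

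Across the 652 windows the mean level was 34.9% ± 0.102 (SD, n = 2) in wild type GMP and 59.8% ± 0.0464 (n = 2) in Idh2 mutant GMP. It was 39.1% ± 0.0118 (n = 2) in wild type MEP and 64.3% ± 0.333 (n = 2) in Idh2 mutant MEP. These 4 means follow from the choice of windows. Knockout GMP lay at 38.6% ± 0.559 (n = 2) and knockout MEP at 42.2% ± 4.01 (n = 2), with libraries at 39.4% and 45.03%. The 3 double mutant libraries lay at 46.6%, 48.8% and 44.5% (mean 46.7% ± 2.15). Every knockout and double mutant library was thus below every Idh2 mutant library in this mean, and double mutant library 3 was below knockout MEP library 2. The top place of the Idh2 mutant libraries is in part fixed by the choice, which took windows where they were high. Over all measured windows, which were not chosen that way, the double mutant was highest at 43.4% ± 0.636, with Idh2 mutant MEP at 40.7% ± 0.284. The 2 orders are therefore no like comparison.

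**Figure D1:**
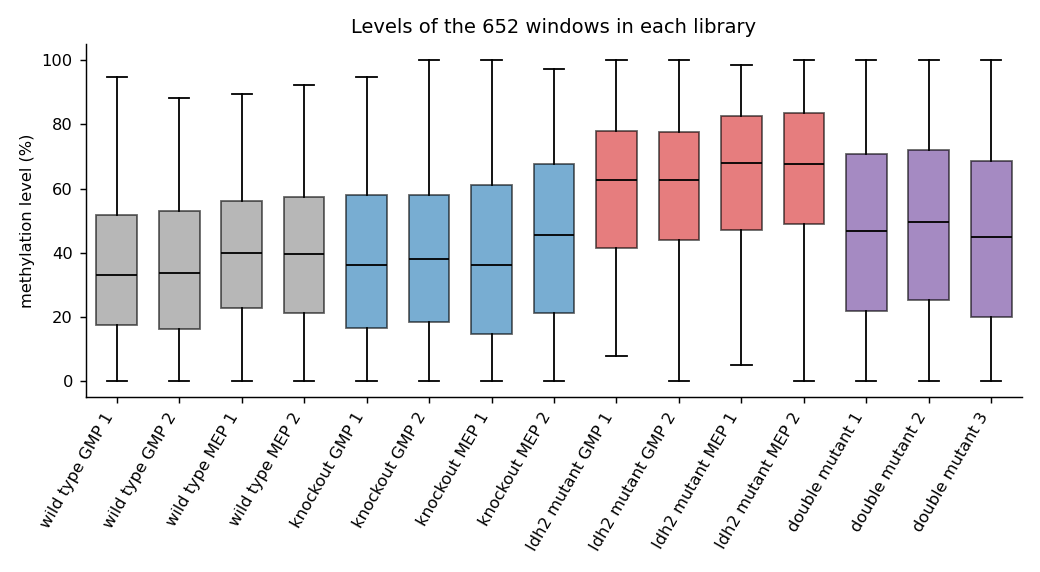
Methylation level (%) of the 652 windows in each of the 15 libraries. Boxes show the middle 50% of windows with the median as a line and whiskers the lowest and highest window. Idh2 mutant medians lie between 62.5% and 68.1% by choice of the windows, double mutant medians between 44.8% and 49.6%, and knockout medians between 36.1% and 45.5%.

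The windows were of intermediate methylation. Their wild type MEP levels had a median of 41.4% and middle quartiles of 21.8% and 56.1%, while the median over all windows was 12.8%, with quartiles of 0.366% and 87.0%. The median gain was 23.4 points in each lineage. Of the 652, 493 (75.6%) had all 4 Idh2 mutant libraries above all 4 wild type libraries, which 7.55% of all windows did. The same libraries chose the windows, so this count is in part fixed by the choice. The share over all windows, not chosen that way, is no like comparison. Just inside the threshold, 76 windows had a smaller gain of 15 to 16 points, and just outside, 94 windows had 14 to 15 points. The double mutant lay at least 15 points over wild type MEP in 25 windows of each of these bands. A further 469 windows gained 15 points in GMP and not in MEP, and 401 in MEP and not in GMP.

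Part of each gain depends on which replicates did the choosing. When replicate 1 of each wild type and Idh2 mutant group chose the windows (799), replicate 2 gave median gains of 14.2 points in GMP and 11.3 in MEP, and 260 windows (32.5%) again gained 15 points in both lineages. In the reverse direction 758 windows were chosen, the median gains were 13.3 and 13.6 points, and 260 (34.3%) again gained 15 points in both. Over all windows that share was 2.59% and 2.73%, a background that is not matched for starting level. The Idh2 mutant replicates also differed from each other in a shared way: at 69 of the 652 windows (10.6%, against 1.57% of all windows) the 2 replicates were at least 20 points apart in the same direction in GMP and in MEP. Wild type replicates did so at 13 of the 652 (1.99%, against 0.390% of all) and knockout replicates at 2 (0.307%, against 0.126%). Means of the wild type and Idh2 mutant replicates chose the windows, and 1 high Idh2 mutant replicate can carry such a mean. The higher share of such Idh2 mutant windows in the set is thus partly built in. In an intron of Pax7, a transcription factor of muscle stem cells, Idh2 mutant replicate 1 read 83.9% in GMP and 75.4% in MEP while replicate 2 read 29.9% and 32.7%. Wild type libraries there lay between 20.8% and 37.8%, so the gain at Pax7 came from replicate 1.

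The largest gains by the smaller of both lineages included regulators, receptors and enzymes. The largest lay 9097 bp from the nearest start, that of Il10, an anti-inflammatory cytokine (chromosome 1, window 132907001 to 132908000). Its levels were 34.5% and 37.1% in wild type GMP, 22.4% and 75.3% in wild type MEP, 88.1% and 86.0% in Idh2 mutant GMP, and 95.4% and 99.0% in Idh2 mutant MEP. Wild type MEP library 2 stood between the other wild type libraries and the mutants. Knockout libraries at Il10 read 50.9% and 40.7% in GMP and 26.4% and 25.9% in MEP, and the 3 double mutant libraries 4.92%, 0.45% and 0% (0 of 123 reads, which allows up to 2.44%). The double mutant was therefore below every other library. It lay 24.4 points under knockout MEP (adjusted p = 0.0355, quasi-binomial F test with Benjamini-Hochberg adjustment over all windows, the test used throughout).

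Near the start of Tigd5, a gene derived from a transposase, wild type libraries read 8.66% to 15.9% and Idh2 mutant libraries 46.5%, 72.3%, 47.1% and 73.8%. Both knockout MEP libraries and all 3 double mutant libraries read 0%, and knockout GMP read 1.92% and 0%. At 85 to 210 reads, a count of 0 allows levels of up to 1.43% to 3.53% in these libraries (3 reads of the total). A window in an intron of Dnmt3a itself (chromosome 12, 3871001 to 3872000) had a similar order. Wild type libraries there read 21.3% to 29.3%, Idh2 mutant 46.2% to 79.2%, knockout 11.4% to 20.6%, and double mutant 17.6%, 18.5% and 8.33%. At the Dnmt3a window double mutant and knockout MEP differed by -2.23 points (adjusted p = 0.852).

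At other windows with large gains the double mutant was above the knockout. At Tspan4, a tetraspanin, an intron window had wild type and knockout libraries between 2.02% and 8.33%, Idh2 mutant libraries between 42.2% and 56.2%, and double mutant libraries at 23.3%, 25% and 31.2%. The Tspan4 difference of double mutant from knockout MEP was 22.5 points (adjusted p = 0.000249), with no overlap of libraries. A window 106779 bp from the nearest start, that of the T-box developmental regulator Tbx3, read 27.6% to 29.8% in wild type GMP, 32.0% and 8.54% in wild type MEP, 64.1% to 70.6% in Idh2 mutant libraries and 73.6%, 77.9% and 69.7% in the double mutant. Knockout MEP libraries at Tbx3 read 27.9% and 59.6%, and the double mutant was 29.98 points above them (adjusted p = 0.0176). Klra3, an inhibitory receptor of natural killer cells, held a promoter window at 41.7%, 63.9% and 59.6% in the double mutant and 52.1% and 56.0% in knockout MEP, which overlapped, between wild type MEP at 35.04% and 40% and Idh2 mutant MEP at 82.0% and 81.2%.

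Fasn, the enzyme of fatty acid synthesis, was intermediate. A coding exon window read 17.0% and 15.4% in wild type MEP, 54.5% and 58.8% in Idh2 mutant MEP and 32.4%, 25.4% and 35.4% in the double mutant. Knockout MEP at Fasn, with 41.7% and 29.8%, overlapped the double mutant. The remaining windows of the 10 largest gains were near Gm6226, F930017D23Rik and Ier3, an immediate early response gene, and none of these 3 was called between double mutant and knockout MEP (adjusted p = 0.694, 0.648 and 0.212).

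The first question on these windows is how many gains were still present in the double mutant. A gain was counted as remaining where the double mutant mean exceeded the wild type MEP mean by at least 15 points. This held for 238 of the 652 windows (36.5%), against a background of 10.2% of all windows and 14.3% of those with room to rise. That background depends on the starting level: of all windows with wild type MEP at 10 to 20%, 20 to 40% and 40 to 60%, the bands that held most of the 652, 33.3%, 30.5% and 28.97% lay 15 points above wild type MEP in the double mutant. The other 414 did not remain. In 227 of the 652 the double mutant mean was at or below wild type MEP, and in 77 (11.8%, background 2.27%) it was at least 15 points below it. The median double mutant minus wild type MEP difference was 6.77 points, and the median share of the Idh2 mutant MEP gain that was reached was 27.9%. Since wild type MEP and Idh2 mutant MEP helped to choose the windows, these values are descriptions with no test.

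With windows chosen from one replicate and wild type taken from the other, 28.8% and 33.8% of the windows were 15 points above wild type MEP in the double mutant (9.97% and 11.8% of all windows), though most of them did not gain 15 points in both lineages in the replicate left out. All 3 double mutant libraries were above both wild type MEP libraries in 283 of the 652 windows (43.4%, background 37.1%), and of the 238 remaining windows in 227. All 3 were below both Idh2 mutant MEP libraries in 374 of the 652 windows (57.4%, background 10.2%). High Idh2 mutant MEP levels helped to choose the windows, so this count is in part fixed by the choice. Its background, from windows not chosen that way, is no like comparison. The double mutant reached 100% or more of the gain in 143 windows, 50 to 100% in 124, and a smaller part above 0 in 158. Among windows that gained in GMP alone, 22.2% lay 15 points above wild type MEP in the double mutant, and among those that gained in MEP alone 34.2% did.

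**Figure D2:**
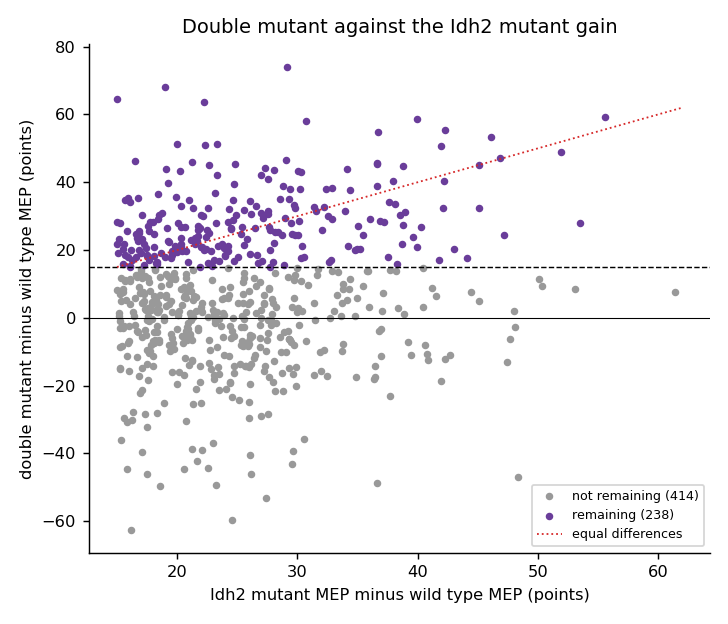
Each point is 1 of the 652 windows. The horizontal axis is the Idh2 mutant MEP minus wild type MEP difference and the vertical axis the double mutant minus wild type MEP difference, both in percentage points and sharing the wild type libraries; 238 windows lie on or above the dashed line at 15 points, and points fall on both sides of the dotted line of equal differences.

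The 6 windows furthest above wild type MEP in the double mutant were at Kcnk12, Gm14114, Uox, Gm9631, 2410131K14Rik and Col5a1, with differences of 74.0 down to 58.6 points. In a coding exon of Kcnk12, a potassium channel subunit, wild type MEP read 15.6% and 15.2%, Idh2 mutant MEP 64.8% and 24.3%, and the double mutant 86.7%, 95.8% and 85.7%. In a coding exon of Col5a1, a collagen chain, wild type MEP read 14.7% and 6.18%, Idh2 mutant MEP 52.5% and 48.3%, and the double mutant 66.1%, 68.3% and 72.7%. At Kcnk12 and Col5a1 every double mutant library exceeded every Idh2 mutant MEP library. At 2410131K14Rik the double mutant read 93.2%, 91.0% and 79.9% beside 74.1% and 94.3% in Idh2 mutant MEP, which overlapped.

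The 6 windows furthest below wild type MEP were at Fry, C530008M17Rik, Fam110a, Ccdc6, Fbxo31 and Il10, with differences of -62.5 to -47.1 points. In a coding exon of Fam110a, wild type MEP read 45.7% and 61.0%, Idh2 mutant MEP 70.2% and 73.6%, knockout MEP 15.04% and 11.6%, and the double mutant 3.60%, 5.29% and 2.22%. Ccdc6 is known from fusions with RET in thyroid cancer, and in its intron wild type MEP read 63.2% and 63.1%, Idh2 mutant MEP 78.3% and 94.5%, knockout MEP 14.3% and 38.0%, and the double mutant 10.7%, 25% and 5.76%. Fam110a and Ccdc6 were thus low in the knockout MEP and double mutant means, whereas at Fry, C530008M17Rik and Fbxo31 the knockout MEP mean stayed at 52.1% to 74.4%. At Fam110a the double mutant was still below knockout MEP with no overlap of libraries. The difference of -9.62 points (adjusted p = 0.0296) missed the minimum of 10 points for a call. Of the 652 windows, 13 had a double mutant level of 10% or less with wild type MEP at 30% or more (57 of all windows), and 52 had 80% or more with wild type MEP at 60% or less (155 of all windows).

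Knockout levels at the windows were close to wild type in the median and wide around it. The median knockout minus wild type difference was 2.12 points in GMP and 1.91 points in MEP, with middle quartiles of -4.52 to 10.1 and -5.52 to 11.9 points. The knockout was at least 15 points above wild type in 109 windows in GMP (16.7%, background 0.814%) and in 130 in MEP (19.9%, background 1.42%), 69 of them in both (10.6%, background 0.362%). It was at least 15 points below in 32 windows in GMP (4.91%, background 2.21%) and 52 in MEP (7.98%, background 2.45%), 17 of them in both (2.61%, background 1.21%).

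These differences share the wild type libraries that chose the windows, so the counts above wild type are in part built in. Their background is not matched for starting level: wild type MEP was under 10% in 9.97% of the set and 48.7% of all windows. Only the medians, and not these counts, were repeated with the replicate that did not choose. With wild type taken from the replicate that did not choose, the knockout medians were -0.588 and -0.156 points in GMP and -1.18 and -0.722 points in MEP, so the sign of the median was not stable. The MEP median also turned with the knockout libraries, to -0.767 points without knockout MEP replicate 2 and to 4.96 without replicate 1. Of the 238 remaining gains, 149 had knockout MEP within 15 points of wild type MEP and 15 had it at least 15 points below. The other 74 had knockout MEP at least 15 points above wild type, and they were 74 of 130 such windows (56.9%). Over all measured windows with knockout MEP at least 15 points above wild type the share was 51.4%, which is near that of the set.

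Myb, a transcription factor of immature blood cells, had the nearest start, 31512 bp away, to a window where knockout GMP was far from wild type GMP. Wild type GMP read 10.1% and 7.05% there, knockout GMP 58.8% and 62.6%, and Idh2 mutant GMP 37.4% and 47.4%. In MEP the Myb window read 56.6% and 53.7% in wild type, 48.1% and 78.1% in knockout, 88.9% and 91.3% in the Idh2 mutant and 54.3% to 70.1% in the double mutant. The knockout thus exceeded the Idh2 mutant in GMP, and its MEP libraries fell on either side of wild type.

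Knockout MEP and knockout GMP did not enter the choice and were tested against each other. Knockout MEP was higher at 5 of the 652 windows, of 11 called in all (0.0376%), and lower at 0 (background 0%). A further look at unadjusted p under 0.05 gave 80 of the 652 (12.3%, background 7.32%) and limma called 0. The 5 were at Kdelc2, Slc26a8, Gpr110, Cdca4 and Itgb3. In a coding exon of Kdelc2, an enzyme of the endoplasmic reticulum, knockout GMP read 21.9% and 30.7% and knockout MEP 93.9% and 83.2% (difference 62.2 points, adjusted p = 0.0165). In the printed intron of Slc26a8, a sperm anion transporter, knockout GMP read 26.2% and 45.2% and knockout MEP 85.9% and 79.3% (adjusted p = 0.0335).

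Wild type means differed in the same direction at Kdelc2 and Slc26a8. Wild type GMP read 19.5% and 24.5% and wild type MEP 62.7% and 43.4% at Kdelc2, and at Slc26a8 17.2% and 15.8% beside 41.5% and 36.6%. Itgb3 encodes the beta chain of the platelet fibrinogen receptor, and in its intron knockout GMP read 49.6% and 61.8%, knockout MEP 94.6% and 85.7%, and the double mutant 94.0%, 89.8% and 93.8%. Cdca4, 11232 bp from its window, read 52.8% and 59.3% in knockout GMP and 94.7% and 90.6% in knockout MEP. All 5 were within the 238 remaining gains. No call of the 5 held in every fit: with limma or the replicate block all 5 missed the threshold, and without knockout GMP replicate 1 or either knockout MEP replicate 0 were called.

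Double mutant was tested against knockout MEP, both without Dnmt3a and neither of which chose the windows. The 2 groups differ in mutant Idh2, in malignancy and in chromosome Y reads, so the contrast cannot say which of these a difference goes with. The double mutant was higher at 128 of the 652 windows (19.6%, background 11.9%) and lower at 72 (11%, background 1.84%). With the replicate number as a block 43 were lower, and with limma 46. The median difference was 2.51 points, against 0.349 points over all windows. The share called higher was close to that of all windows with room to rise (16.4%), and the share called lower was not (1.63%). Among windows with knockout MEP between 20 and 80%, a range chosen after the values were seen, 18.1% of 408 were higher (21.7% of all such windows) and 12.5% lower (5.80%). No test of this difference between sets was made.

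All 128 higher windows and all 72 lower windows had double mutant libraries that did not overlap the knockout MEP libraries. The same was not counted for the calls over all windows, so it adds no support beyond the call itself. Of the 128 higher windows, 114 were remaining gains. All 72 lower windows were gains that did not remain, and 452 windows were called in neither direction. Windows that gained in GMP alone were higher in 17.3% and lower in 8.10%, and those that gained in MEP alone in 20% and 6.48%. The counts depend on the 2 knockout MEP libraries. Without replicate 1 the higher count was 76, and without replicate 2 the lower count was 44. The median difference was 0.374 points without replicate 1 and 5.97 points without replicate 2.

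**Figure D3:**
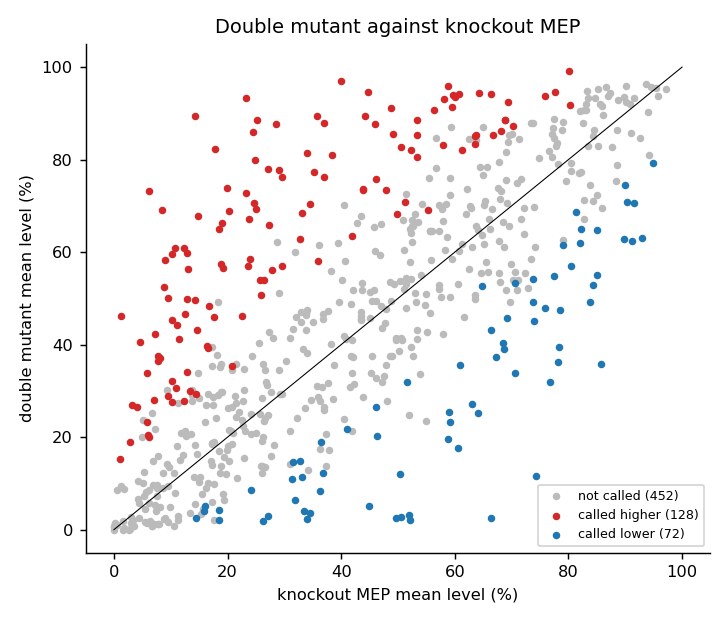
Mean methylation level (%) of the double mutant (3 libraries) against knockout MEP (2 libraries) at the 652 windows, with the line of equal levels. The 128 windows called higher lie above the line, the 72 called lower below it, and 452 were not called.

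The 8 largest rises over knockout MEP were at Kcnk12, Nradd, Gm14114, Mon1a, Arpp21, Uox, Col5a1 and Tmem143. In the Kcnk12 exon printed above, knockout MEP read 15.3% and 13.3%, so the double mutant was 75.1 points higher (adjusted p = 0.000121). Near the start of Gm14114, knockout MEP read 7.23% and 5.15%, Idh2 mutant MEP 30.8% and 17.7%, and the double mutant 86.7%, 81.0% and 52.3%, a difference of 67.1 points (adjusted p = 0.00012). Both of these windows were low in wild type and knockout alike.

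Nradd, a relative of neurotrophin receptors, had a different pattern. Its promoter window read 55.4% and 70.2% in wild type MEP, 14.1% and 32.2% in knockout MEP, 93.9% and 84.1% in Idh2 mutant MEP and 95.05%, 90.4% and 94.4% in the double mutant. The Nradd difference between double mutant and knockout MEP was 70.1 points (adjusted p = 7.54e-06). Knockout was below wild type here in each MEP library and in GMP, where it read 37.8% and 38.5% against 62.9% and 64.2%.

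Mon1a, a vesicle trafficking factor, had a similar order of groups, with 42.2% and 52.7% in wild type MEP, 13.1% and 22.6% in knockout MEP and 80.5%, 66.1% and 100% in the double mutant. The Mon1a difference was 64.4 points (adjusted p = 8.49e-05). The promoter window of Arpp21, a phosphoprotein, read 18.7% and 31.7% in knockout MEP and 90.5%, 86.2% and 89.0% in the double mutant (63.4 points, adjusted p = 1.11e-05). That of Tmem143, a membrane protein, read 23.6% and 33.6% and then 82.3%, 84.6% and 96.1% (59.1 points, adjusted p = 2.30e-05).

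In an intron of Uox, urate oxidase, replicate 1 exceeded replicate 2 in both lineages of wild type and Idh2 mutant cells and in knockout MEP. Idh2 mutant replicates 1 and 2 read 68.4% and 42.6% in GMP and 60.8% and 12.4% in MEP, wild type 36.2% and 16.6% in GMP and 32.6% and 10.5% in MEP, and knockout MEP 37.8% and 11.2%. The double mutant at Uox read 85.6%, 89.6% and 83.0%, above all of these and 61.6 points over knockout MEP (adjusted p = 0.00572). Without knockout MEP replicate 2 the Uox difference was 48.3 points and the adjusted p 0.0639.

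**Figure D4:**
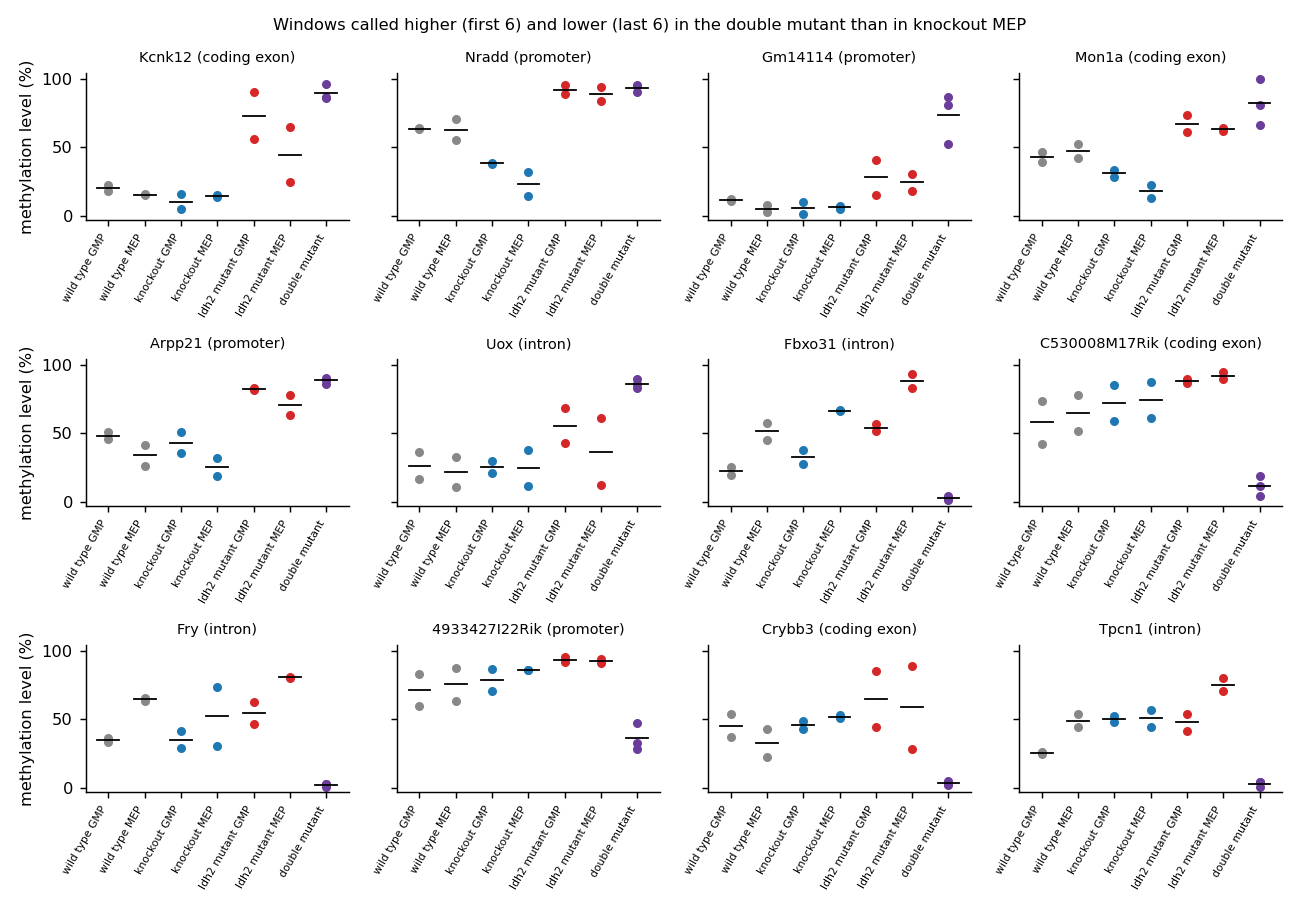
Methylation level (%) in every library at 12 windows, 6 called higher (Kcnk12 to Uox) and 6 called lower (Fbxo31 to Tpcn1) in the double mutant than in knockout MEP. Points are libraries and bars group means; at the lower windows the 3 double mutant libraries lie below every other library.

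The 8 largest falls were at Fbxo31, C530008M17Rik, Fry, 4933427I22Rik, Crybb3, Tpcn1, Limd1 and Atp8a2. In the printed intron of Fbxo31, a substrate receptor of a ubiquitin ligase, wild type MEP read 57.5% and 45.1%, knockout MEP 66.0% and 66.7%, Idh2 mutant MEP 93.1% and 82.7%, and the double mutant 3.85%, 2.67% and 0.913%. The fall at Fbxo31 from knockout MEP was -63.8 points (adjusted p = 8.27e-07). GMP libraries at Fbxo31, at 19.6% to 56.6%, were also all above the double mutant. In the MEP means the window was thus higher in knockout and in Idh2 mutant cells than in wild type. It was nearly unmethylated in the double mutant, which is also malignant.

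Tpcn1, an endolysosomal cation channel, had an intron window with a similar order. It read 54.1% and 44.0% in wild type MEP, 44.1% and 56.9% in knockout MEP, 79.8% and 70.5% in Idh2 mutant MEP and 4.14%, 3.85% and 0.518% in the double mutant (-47.7 points from knockout, adjusted p = 1.10e-05). A coding exon window of C530008M17Rik read 61.1% and 87.6% in knockout MEP and 11.7%, 18.7% and 4.10% in the double mutant (-62.9 points, adjusted p = 0.0005). The knockout MEP libraries were far apart there, and the fall stayed larger than that gap.

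Fry encodes a microtubule-associated protein, and in its intron knockout MEP read 30.6% and 73.6% and the double mutant 0.83%, 2.48% and 2.88% (-50.0 points, adjusted p = 3.20e-05). Without knockout MEP replicate 2 the Fry difference was -28.5 points, and it stayed called. In a coding exon of Crybb3, a lens crystallin, knockout MEP read 51.0% and 52.9% and the double mutant 4.58%, 1.79% and 2.94% (-48.8 points, adjusted p = 0.00229). The Idh2 mutant gain at Crybb3 rested on replicate 2, with 44.5% and 85.2% in GMP and 28.6% and 88.8% in MEP. The windows of 4933427I22Rik, of Limd1, a LIM domain adaptor, and of Atp8a2, a phospholipid flippase, fell by 49.8, 44.9 and 43.0 points (adjusted p = 0.00127, 0.000295 and 0.00109), to double mutant means of 35.9% ± 9.94, 31.9% ± 6.44 and 17.6% ± 2.08 (SD, n = 3).

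By place, the 652 windows lay less often in promoters than all windows (within 1 kb of a start, 21.8% against 46.9%) and more often in introns (32.1% against 17.6%) and between genes (31.4% against 25.5%). Coding exons held 10.4% of them (8.16% of all), untranslated sequence 2.76% (1.31%) and noncoding exons 1.53% (0.513%). Place was not matched for level. The median number of CpGs in the sequence of a window was 20, against 31 over all windows, and the median GC content 51.3% against 53.5%.

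Gains remained in 29.6% of the 142 promoter windows, 33.5% of 209 intron windows, 38.5% of 205 intergenic windows and 45.6% of 68 coding exon windows. In untranslated sequence 10 of 18 remained and in noncoding exons 6 of 10, which are small numbers. The share of all windows 15 points above wild type MEP in the double mutant varied less by place, from 9.75% in introns to 16% in noncoding exons. The double mutant was called higher than knockout MEP in 26.5% and lower in 10.3% of the coding exon windows, against 11.2% and 1.51% of all coding exon windows. In introns it was called higher in 16.7% and lower in 12.9%, against 9.86% and 3.70% of all intron windows.

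**Figure D5:**
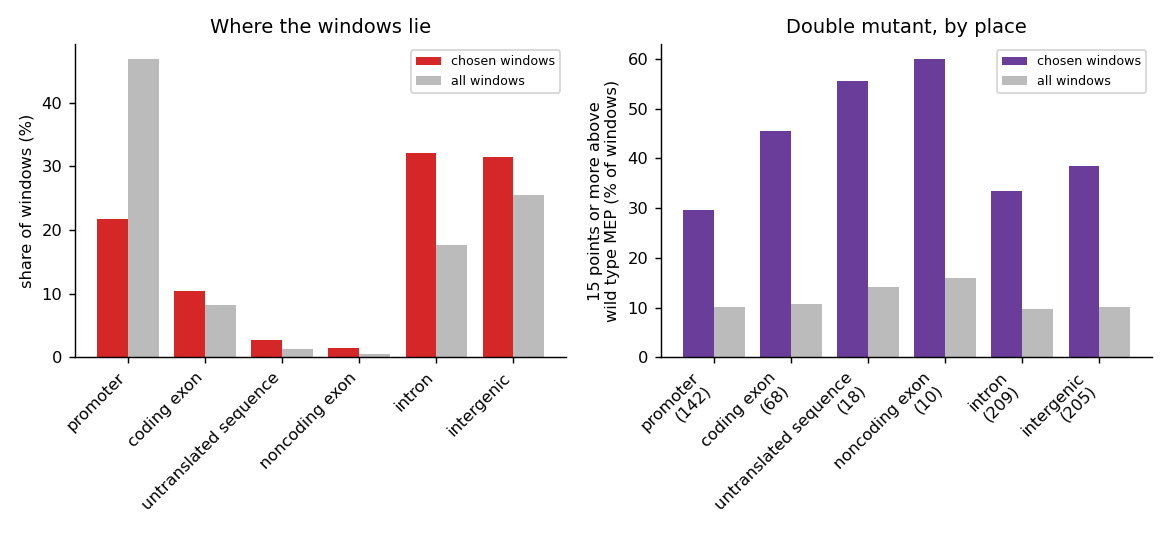
Left, share (%) of the 652 chosen windows and of all windows by place. Right, share (%) of windows at each place whose double mutant mean was at least 15 points above wild type MEP, with the number of chosen windows in parentheses; promoters hold 21.8% of chosen and 46.9% of all windows.

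Shares by starting level were close to each other. Gains remained in 33.8% of the 65 windows with wild type MEP under 10% (10.9% of all such windows) and in 39.8% of 118 above 60% (13.4%). Between these levels the shares were nearer to those of all windows, at 34.2% of 79 at 10 to 20% (33.3%), 33.3% of 171 at 20 to 40% (30.5%) and 38.8% of 219 at 40 to 60% (28.97%). Calls against knockout MEP shifted with the level: of the 65 windows under 10%, 14 were higher and 0 lower, and of the 118 above 60%, 10 were higher and 26 lower. Calls over all windows were not counted by level, so this shift is not read as particular to the set. Low windows have little room to fall and high windows little room to rise.

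Motifs were searched on both strands of each whole 1 kb window. AGATAA, the core bound by GATA factors, occurred in 34.0% of the 652 windows and 29.2% of all, and TGTGGTT of RUNX factors in 20.2% and 14.7%. GAGGAAGT of PU.1 and related ETS factors occurred in 9.51% and 6.18%, TTGCNNAA of C/EBP factors in 31.4% and 28.4%, and CAGCTG, an E-box, in 51.4% and 43.5%. Overlaps between motifs were not removed, and a match is not a bound site. Within introns and intergenic sequence alone the difference was narrower for AGATAA (39.9% against 36.7%), a little wider for TGTGGTT (23.7% against 17.3%) and GAGGAAGT (10.4% against 6.41%), and much the same for CAGCTG (51.2% against 43.3%). Remaining and lost gains held AGATAA in 30.3% and 36.2%, and TGTGGTT in 20.6% and 20.05%. CCGG, the site of the enzyme MspI that the method commonly uses, was in every window.

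The 652 windows were assigned to 612 genes, and 12 pairs of neighbours in the set adjoined each other. The gene with the most was Nfix, a nuclear factor I transcription factor of blood stem cells, with 5 windows over chromosome 8, 87231001 to 87298000. It was singled out after its values were seen. The 2 windows nearest to 87298000 were high in the double mutant. A coding exon window from 87295001 read 30.4% and 31.2% in wild type MEP, 13.5% and 23.6% in knockout MEP, 68.8% and 68.1% in Idh2 mutant MEP and 70.7%, 75.9% and 48.6% in the double mutant (46.6 points over knockout, adjusted p = 0.000238). A promoter window from 87297001 read 15.7% and 17.9% in knockout MEP and 56.5%, 40.4% and 48.0% in the double mutant (31.5 points, adjusted p = 0.00142).

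The other 3 Nfix windows were low in the double mutant. An intron window from 87269001 read 39.9% and 45.3% in wild type MEP, 28.4% and 34.8% in knockout MEP, 66.7% and 55.2% in Idh2 mutant MEP and 18.4%, 14.1% and 11.1% in the double mutant (-17.0 points, adjusted p = 0.00272). An intron window from 87260001 had double mutant libraries at 7.27%, 5.83% and 5.05%, below wild type MEP at 32.4% and 15.9% and knockout MEP at 22.0% and 12.4% (adjusted p = 0.0826). At a promoter window from 87231001 the double mutant, at 7.34%, 20.3% and 9.17%, overlapped knockout MEP at 7.79% and 13.4% (adjusted p = 0.643). Idh2 mutant libraries were above wild type libraries of the same lineage at all 5, so gains within 1 gene had opposite outcomes.

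Of all measured windows 2.23% were in the set, and no test of the gene list shares against this was made. Of 33 stem and early progenitor genes, 30 were measured in 127 windows, and 6 windows (4.72%) were in the set, the 5 of Nfix and 1 assigned to Gata2. The Gata2 window, 53431 bp from the start of this stem cell factor, read 25.9% and 28.7% in wild type MEP, 59.4% and 41.1% in Idh2 mutant MEP, 13.0% and 25% in knockout MEP and 35.4%, 28.1% and 25.5% in the double mutant. Double mutant and knockout did not overlap, but the difference missed the threshold (10.7 points, adjusted p = 0.177). The erythroid and megakaryocyte list had 1 of 47 windows (2.13%) in the set, that of Itgb3. The granulocyte and macrophage list had 3 of 51 (5.88%), at Csf2ra, Irf8 and Cebpb.

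Csf2ra encodes the alpha chain of the GM-CSF receptor. Its promoter window read 11.4% and 9.09% in wild type GMP and 41.3% and 27.9% in Idh2 mutant GMP. In wild type MEP it read 37.9% and 14.5%, in Idh2 mutant MEP 66.9% and 31.3%, in knockout MEP 42.0% and 48.9% and in the double mutant 38.2%, 45.7% and 28.7%. The Csf2ra levels of the double mutant thus overlapped those of wild type MEP. A window 150322 bp from the nearest start, that of the monocyte regulator Irf8, remained in the double mutant at 59.6%, 72.5% and 53.8%, with knockout MEP at 39.0% and 40% (22.5 points, adjusted p = 0.166). The lymphoid list had 2 of 67 (2.99%), at Il10 and Klra3. At the share called higher in the 652 windows (19.6%), 5 granulocyte, macrophage and lymphoid windows are too few to read from, and of them Il10 was called lower and the other 4 were not called.

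The leukaemia and tumour suppressor list had 6 of 155 windows (3.87%), at Myb, Zbtb16, Rara, Flt3, Socs3 and Etv6, of which that of Etv6 remained. Within an intron of Zbtb16, a zinc finger repressor fused to Rara in some leukaemias, wild type MEP read 53.3% and 60%, Idh2 mutant MEP 81.2% and 91.3%, knockout MEP 23.6% and 48.9%, and the double mutant 13.3%, 13.8% and 25.3%. At an intron of Rara, the retinoic acid receptor, the same groups read 43.7% and 27.1%, 65.7% and 62.7%, 14.5% and 23.2%, and 15.9%, 11.9% and 13.8%. Both introns lay below wild type MEP in all double mutant libraries, and neither differed from knockout MEP by the test (adjusted p = 0.113 and 0.578). Flt3, a growth factor receptor of early progenitors, had an intron window at 3.85% and 2.82% in wild type GMP, 24.8% and 21.3% in Idh2 mutant GMP, and 24.0% and 28.9% in knockout GMP. In MEP the Flt3 window read 30.3% and 28.5% in wild type, 61.7% and 48.0% in the Idh2 mutant and 30.6% and 29.9% in knockout, and the double mutant read 33.6%, 32.8% and 43.0%. Knockout MEP overlapped wild type MEP there, and the double mutant lay above both and below the Idh2 mutant without a call against knockout MEP (adjusted p = 0.35).

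Developmental transcription factors had 6 of 433 windows (1.39%) in the set, of which 5 remained: those of Tbx3, Gata4, Pax7, Foxf1a and Tbx4. Those assigned to Tbx3, Gata4, Foxf1a and Sox9 were intergenic and 72297 to 173228 bp from the start. The sixth, 173228 bp from Sox9, was lower in the double mutant, at 58.5%, 55% and 51.4%, than in knockout MEP, at 82.1% and 87.9% (-30.1 points, adjusted p = 0.00639). At the window 144694 bp from Foxf1a, a forkhead factor, the double mutant read 93.6%, 94.7% and 94.7% and knockout MEP 63.9% and 64.5% (30.2 points, adjusted p = 0.00532). At the promoter of Tbx4, a T-box factor of limb development, it read 42.7%, 56.4% and 62.6% and knockout MEP 22.1% and 30.5% (27.5 points, adjusted p = 0.00983). With Tbx3, 3 of these 6 were called higher and 1 lower, where 19.6% and 11% of the 652 were, and the 5 of 6 that remained stand beside 36.5% of the 652. The list is too short for these shares to be told apart. Of the 5, the Gata4 window read 59.4%, 68.4% and 69.3% in the double mutant. This overlapped wild type MEP at 60.6% and 31% and knockout MEP at 59.9% and 67.5%. The Idh2 mutant gain at Pax7 came from replicate 1, as given above. The DNA methylation machinery list had 1 of 46 windows (2.17%), the Dnmt3a intron described above.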

How the data were processed

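Reduced representation bisulfite sequencing files of 15 libraries in 7 groups were used as the authors deposited them. Reads were aligned with BSMAP 2.74 to mm9, per the submitters' processing notes. The deposited counts are methylated reads and all reads at each CpG cytosine, and the deposited fraction, their quotient, matched them in every row and served no further purpose. How duplicates, trimming and bisulfite conversion were handled is not given in the sources used here. Restriction fragments share their ends, so a copy of a molecule looks like another molecule, and any limit set by counts covers counting error only.

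Strands were summed for each CpG, and all 241527 CpGs kept were CG in NCBIM37. Windows were placed with gencode vM1 on the same build: promoter if within 1 kb of a start, then coding exon, untranslated sequence, noncoding exon, intron, or else intergenic with the nearest start. A quasi-binomial logistic model with 1 mean for each of 7 groups was fitted to all 29251 windows (8 residual degrees of freedom, prior degrees of freedom 5.33, dispersion at least 1) and was tested on simulated data. F tests were adjusted by Benjamini-Hochberg over all windows. Calls required 10 points of difference or more and an adjusted p below 0.05. The alternatives were 20 reads, 500 bp windows, other selection thresholds, equal CpG weights, limma on log2 ratios, blocks, a fit of the compared groups only, and leaving out each library. Software was R 4.3.3 with limma 3.58.1, and Python 3.11.15 with scipy 1.17.1, numpy 2.4.6, matplotlib 3.10.9 and pandas 2.3.3.

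Named windows were the 10 largest gains by the smaller lineage, the 6 highest and 6 lowest double mutant minus wild type MEP differences, the 8 largest rises and 8 largest falls called against knockout MEP, all windows called between the knockout lineages, and the 15 largest gains among windows of 7 gene lists. Those near Irf8, Foxf1a, Tbx4 and Sox9 and 3 further Nfix windows were added after their values were seen. At most 1 window per 10 kb was named within each of these except the lists. The windows and lists were chosen with earlier results of these data known. Coverage alone decided which windows were measured, so no filter on low levels applied.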

Additional observations from a re-analysis of the deposited data

Results flagged for a closer look

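At 2 of the named windows the knockout libraries moved in opposite directions from wild type in the 2 lineages, and the difference between lineages in this contrast was not tested. At a window 121773 bp from the nearest start, that of the adhesion receptor gene Gpr110 (chromosome 17, 43285001 to 43286000), both knockout MEP libraries (85% and 83.9%) were above wild type MEP, by 18.4 points in the mean, and both knockout GMP libraries (47.0% and 45.8%) were below wild type GMP, by -21.0 points. At the Nfix coding exon window from 87295001 the mean knockout minus wild type difference was -12.3 points in MEP and 6.41 points in GMP. Wild type libraries also differed from all others in sex chromosome reads, which cannot be told apart from genotype in either value.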

How the results depend on the processing

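Of the alternatives run, some turned the sign of the median knockout minus wild type differences and none turned that of another result. At 20 reads per CpG 274 windows were chosen, the median knockout minus wild type difference in GMP was 1.51 points, 58 and 34 windows were higher and lower in the double mutant than in knockout MEP, and 0 differed between knockout lineages. Windows of 500 bp left 1 such lineage call. Selection at 10 points gave 1236 windows, a GMP knockout median of 1.33 points, and 238 higher and 122 lower; selection at 25 points gave 160, 5.49 points, 34, 17 and 3 lineage calls. Choosing by the other replicate gave knockout medians in GMP of -0.588 and -0.156 points. limma called 46 lower and 0 between lineages, and a minimum of 25 points left 38 lower. In an alternative added after seeing the data, the 493 windows whose Idh2 mutant libraries were all above wild type held 34.3% remaining gains, 100 higher and 58 lower.

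Leaving out each library, where a lone sample is assumed to vary like the other groups, gave 612 to 685 windows, 34.4 to 40.1% remaining gains, knockout minus wild type medians of 1.66 to 3.60 points in GMP and -0.767 to 4.96 in MEP, median double mutant minus knockout differences of 0.374 to 5.97 points, 76 to 134 higher, 44 to 77 lower and 0 to 4 lineage calls.

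Replicates shared a number but were not shown to be paired: deviations of same-numbered GMP and MEP libraries correlated at 0.361 (wild type), -0.0397 (knockout) and 0.510 (Idh2 mutant), and those of double mutant and knockout MEP at -0.0114 and 0.0346. With the replicate block 103 windows were higher and 43 lower, and 0 differed between knockout lineages. Files carry no reads of the opposite strand, so an alternative that drops likely sequence variants was not run. Depth limits single windows of about 3 CpGs most, and with 2 libraries per group the spread is known mainly from all windows together.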
